A study of Mus musculus with 3 samples.

Results

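Myod1, Myf5, Myf6, Myog, Pax3 and Pax7 are 6 mouse genes for transcription factors that set up skeletal muscle, and the cells profiled here were mesenchymal progenitors (MPs) sorted from the embryonic forelimb. All 6 were among the 20780 protein-coding genes annotated on mouse autosomes (build GRCm38, also called mm10). Each was described by the called accessible regions (peaks) that overlapped the gene or the 20 kb on either side, 173 of the 506515 peaks of the series. Myf5 and Myf6 lie side by side and were read as 1 locus, so that there were 5 loci. Single-nucleus ATAC-seq, in which a transposase cuts open chromatin, had been run on a library from each of 3 stages, embryonic days 12.5, 14.5 and 16.5 (E12.5, E14.5, E16.5), and values given in threes follow that order. With no replicate of any stage there was no test, no p-value and no SD, and stage cannot be told apart from library.

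Every group came from C57BL/6J embryos of the genotype Hic1CreERT2/CreERT2;Rosa26LSLtdTomato/tdTomato, so Cre was driven from the Hic1 gene and no control without these alleles was analysed here. Dams had been gavaged with tamoxifen, 7.5 mg in 300 uL of sunflower oil, on embryonic day 10, which switches on the red reporter in cells using Hic1 at that time. Forelimb pairs of several embryos had been pooled, from whole limbs except in the E16.5 library, where the segment around the elbow had been taken. Dispase was used to dissociate the E12.5 limbs and Collagenase A, Pronase and DNase the later ones. The sort had kept tdTomato+ cells and removed those with CD45, CD117, CD31, CD11b, F4/80 or Ter119, markers of blood and endothelial cells, and it held no muscle marker.

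Skeletal muscle of the limb arises from precursors that migrate out of the somites. The paper proposes that the Hic1+ cells come from the somites too, from other compartments than the muscle precursors, and form connective tissue. In its single-cell RNA data the sorted cells had no detectable Myod1, Myf5, Pax7 or Myh3. In its stained sections tdTomato+ cells did not overlap cells with PAX3 or MYOD1 protein. From its E16.5 RNA data it removed epithelial contaminants marked by Krt1 or Krt14. Pax3 and Pax7 are paired-box factors of the muscle precursors and of the later muscle stem cells. Myf5, Myod1 and Myf6 commit cells to the muscle fate, and Myog drives their fusion and differentiation. These last genes encode basic helix-loop-helix factors that bind E-boxes, short sites written CANNTG. The comparisons ask how open the 6 genes were in cells sorted for another lineage, how that differed between stages, and whether several of the loci were open in the same nucleus more often than their shares predict, as they would be in a muscle nucleus.

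The libraries held 8294, 20023 and 14048 nuclei, with 87048167, 204289151 and 413425059 cut sites in peaks. The median nucleus had 3069.5, 4496 and 13748.5 fragments in peaks, so a raw share of open nuclei at E16.5 rested on the most reads per nucleus. Between 151 and 401 barcodes were shared by each pair of libraries, and 6 by all. Levels are in CPM (counts per 1000000 cut sites in autosomal regions called in all libraries). The peaks of Prrx1, a limb mesenchyme gene, took 128, 133 and 140 CPM, and those of Pdgfra took 147, 166 and 156. Both come from a list of 9 mesenchymal progenitor genes, whose other levels are not given. No level over all genes was set beside them. Pax3 took 129 CPM at E12.5, so such a level does not by itself mark a gene of the sorted lineage. All intervals below are at 95% and cover counting error only, not embryos or libraries.

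Pax3 (chr1:78101267-78197134, minus strand) and Pax7 (chr4:139737062-139833528, minus strand) are long genes. Myog (chr1:134289989-134292548, plus), Myod1 (chr7:46376474-46379099, plus), Myf5 (chr10:107482908-107486134, minus) and Myf6 (chr10:107492853-107494737, minus) are short. Letters are shown for 4 stretches that the values below turn on, each 300 bases, 5′ to 3′ on the gene's strand, with E-boxes in capitals. The promoters are from RefSeq (GRCm38.p6, 250 bases before to 50 after the start), where 3 of the 6 genes had an entry. The Myog promoter (chr1:134289754-134290053) is shown because a peak lay on it in only 2 libraries, and the Pax7 promoter (chr4:139832919-139833218) because a peak lay on it in all 3. The Myod1 stretch (chr7:46376989-46377288) is protein-coding and lies in the gene-body region called in every library. The Pax3 stretch (chr1:78158144-78158443, minus strand) is intronic and lies in the region 39.4 kb downstream of the start. The log2 ratio of E16.5 to E12.5 there was −2.19, which was not the lowest of the window, as a region at 83.8 kb had −3.24.
Myog promoter: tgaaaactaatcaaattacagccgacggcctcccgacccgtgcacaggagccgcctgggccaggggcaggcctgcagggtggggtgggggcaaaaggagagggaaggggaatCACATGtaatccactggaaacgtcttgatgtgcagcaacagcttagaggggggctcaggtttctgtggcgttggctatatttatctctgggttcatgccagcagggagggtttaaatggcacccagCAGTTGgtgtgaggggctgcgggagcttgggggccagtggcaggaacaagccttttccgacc
Pax7 promoter: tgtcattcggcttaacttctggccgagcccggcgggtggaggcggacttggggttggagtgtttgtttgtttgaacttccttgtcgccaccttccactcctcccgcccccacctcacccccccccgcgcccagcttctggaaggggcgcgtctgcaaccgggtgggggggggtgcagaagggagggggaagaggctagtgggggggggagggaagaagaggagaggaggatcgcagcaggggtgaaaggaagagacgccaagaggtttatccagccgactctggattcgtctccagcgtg
Myod1 gene body: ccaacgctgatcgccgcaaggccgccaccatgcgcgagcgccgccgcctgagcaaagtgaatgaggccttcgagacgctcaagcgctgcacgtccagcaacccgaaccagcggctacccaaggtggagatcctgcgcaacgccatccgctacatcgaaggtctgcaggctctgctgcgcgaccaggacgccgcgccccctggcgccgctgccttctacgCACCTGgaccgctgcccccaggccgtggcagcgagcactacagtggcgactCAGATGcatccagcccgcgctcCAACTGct
Pax3 intron: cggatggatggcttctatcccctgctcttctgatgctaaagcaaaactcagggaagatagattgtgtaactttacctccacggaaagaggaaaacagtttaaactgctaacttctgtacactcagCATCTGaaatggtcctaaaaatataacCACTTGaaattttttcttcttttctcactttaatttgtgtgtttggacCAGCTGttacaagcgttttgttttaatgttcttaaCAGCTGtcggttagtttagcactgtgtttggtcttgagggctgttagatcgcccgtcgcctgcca

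The Myog promoter held 2 E-boxes, a number reached or passed by 39.6% of 32851 RefSeq promoters, and the Pax7 promoter held 0. The Myod1 stretch held 3, a number reached or passed by 25.6% of 82930 shared autosomal regions over the same length at their centres. The Pax3 stretch held 4, reached or passed by 10.7%. Both stretches lay at the middle of the overlap of the 3 libraries' peaks, not at the region centre, so the comparison is loose. The motif reads the same on both strands and a match in these letters is a description, not a bound site. The 26 member regions called in all libraries had a median GC content of 52.6%, against 47.3% over all shared autosomal regions, and the 5 at a promoter had 58.2%. Those 5 include promoters of neighbouring genes, Kcnc1 (69.2%) and Gm2102 (59.6%). The regions at the Pax3, Pax7 and Myod1 promoters had 53.3%, 56.7% and 58.2%. No value over all promoter regions was set beside them.

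The member windows held 85, 29 and 59 peaks, of 190443, 102459 and 213613 in the libraries. Merging them gave 97 regions, of which 26 (26.8%) were called in all 3 libraries, 22 in 2 and 49 in 1, beside 31.8% called in all 3 over the whole genome. Pax3 had 34, 9 and 24 peaks, of which 20, 4 and 12 were intronic, and Pax7 had 31, 9 and 18, of which 23, 7 and 12 were. Myog had 8, 6 and 9, Myod1 had 4, 3 and 4, and the Myf5/Myf6 locus had 8, 2 and 4. A region that was not called was below the threshold of that library and was not shown to be closed.

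**Figure D1:**
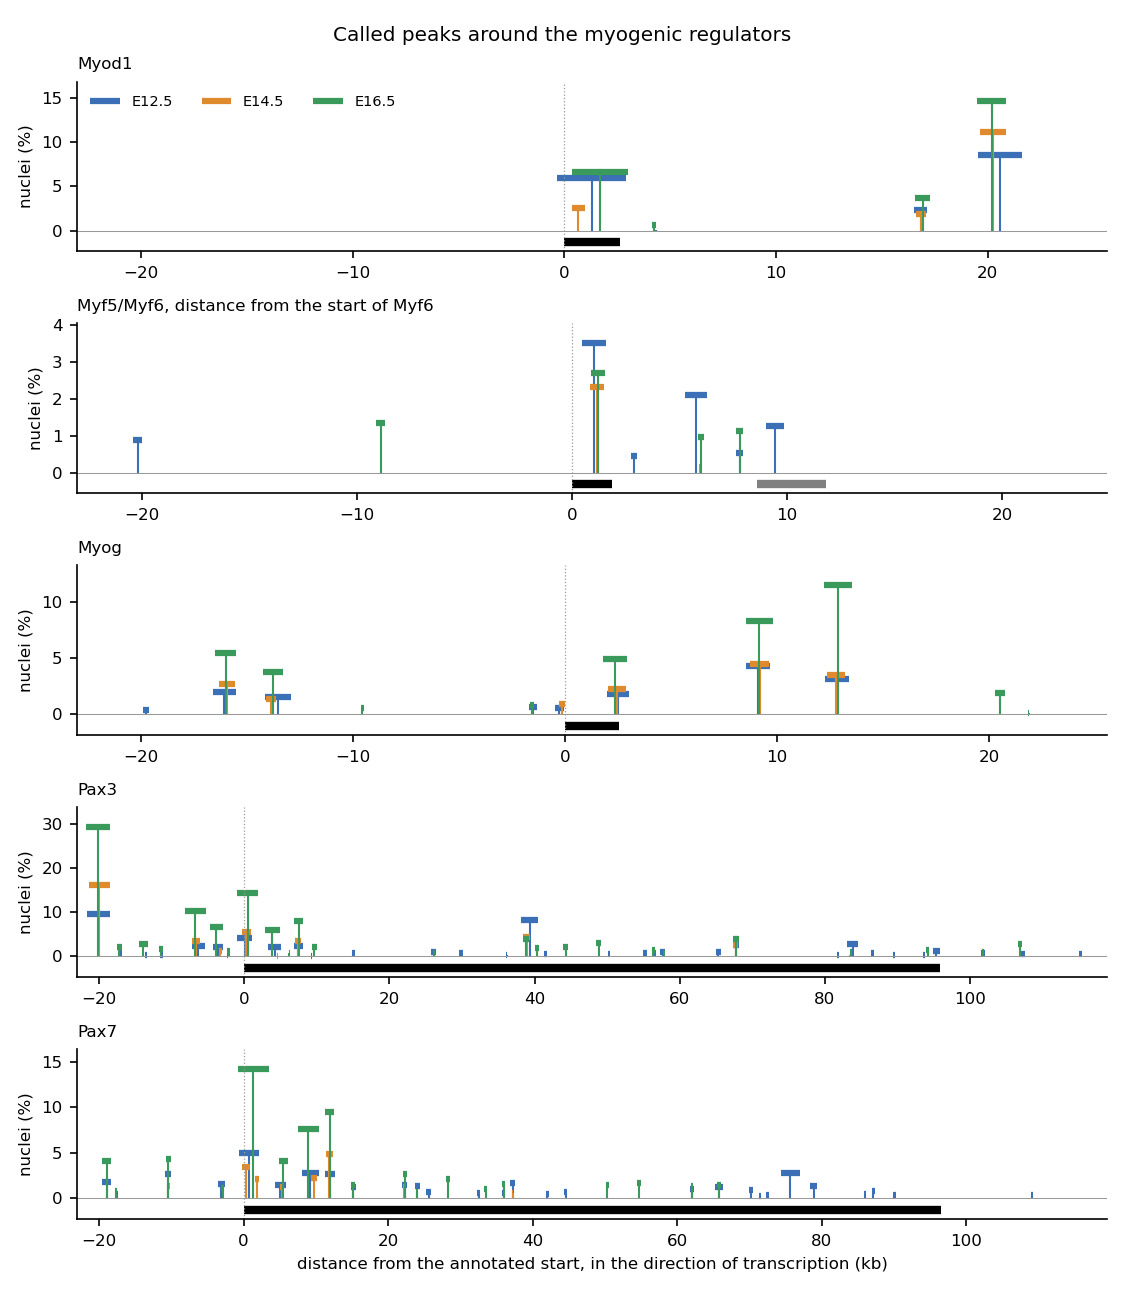
Called peaks around each gene, as distance from the annotated start in the direction of transcription (x axis, kb), against the share of nuclei with a count in the peak (y axis, %, as deposited). Horizontal bars give peak width, colours the libraries, black bars the gene (grey for Myf5). The widest-open peaks in the Pax3 and Myod1 windows sat at the far edge, over promoters of Gm2102 and Kcnc1.

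In each library the promoters of the 6 genes had no peak or stood at the 20.8 percentile or lower among promoters with a peak. Genes without a promoter peak were not ranked, so these are not places among all genes. A promoter peak (within 1000 bp upstream and 100 bp downstream of a start) was called for 72.7%, 68.9% and 74.1% of genes, and was open in a median of 10.5%, 16.6% and 28.2% of nuclei. Pax3 had one in every library, open in 4.09%, 5.46% and 14.4% of nuclei, at the 13.7, 10.8 and 20.5 percentile of promoters with a peak. Pax7 also had one throughout, open in 4.99%, 3.48% and 14.3%, at the 16.6, 6.69 and 20.3 percentile. Both Pax promoters were thus called in each library, and each stood below the median of the promoters with a peak there.

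Among the muscle-commitment genes, Myod1 had a promoter peak at E12.5, open in 5.91% of nuclei (5.41% to 6.44%). That peak was 3261 bp wide and covered the gene body, and the peaks called over the gene at E14.5 and E16.5 began inside it, so those libraries had none at the promoter. Myf5 had a small peak just upstream at E12.5 (0.518% of nuclei) and at E16.5 (1.12%), and none at E14.5. Myf6 had no promoter peak in any library. Myog, the differentiation factor, had one at E12.5 (0.591%) and E14.5 (0.939%), at the 2.73 and 0.887 percentile, and none at E16.5.

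The share of nuclei with a count anywhere in a locus depends on depth, so it is given as deposited and at equal depth. Pax3 was open in 28.9% (27.9% to 29.9%), 30.1% (29.5% to 30.8%) and 59.6% (58.7% to 60.4%) of nuclei. Within that window the peak over the promoter of Gm2102, a neighbouring gene, was open in 9.61%, 16.1% and 29.4%. Pax7 was open in 23.8% (22.9% to 24.8%), 15.7% (15.2% to 16.2%) and 41.5% (40.7% to 42.3%). The Pax windows are the longest, since these genes span most of the sequence counted, and no order between genes was read from these shares.

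Myod1 was open in 14.6% (13.9% to 15.4%), 14.7% (14.2% to 15.2%) and 22.6% (22.0% to 23.3%) of nuclei. Within that window the peak over the promoter of Kcnc1, a neighbouring gene, was open in 8.56%, 11.1% and 14.7%. The Myod1 gene-body peak was open in 5.91%, 2.57% and 6.65%. Myog was open in 12.4% (11.7% to 13.2%), 13.9% (13.4% to 14.4%) and 29.7% (28.9% to 30.5%). Myf5/Myf6 was open in 8.55% (7.96% to 9.17%), 2.46% (2.25% to 2.69%) and 5.81% (5.43% to 6.21%).

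With each nucleus thinned to 1309 fragments, which left out 2073, 502 and 214 shallower nuclei, the E16.5 shares were no longer the highest at any locus. The thinned share was 11.5%, 9.29% and 10.2% at Pax3 and 8.95%, 4.23% and 5.38% at Pax7. It was 4.68%, 4.23% and 2.46% at Myod1 and 3.94%, 3.84% and 3.49% at Myog. At Myf5/Myf6 it was 2.80%, 0.676% and 0.571%. At 4 of the 5 loci the order of the stages in the shares as deposited therefore went against the thinned shares and the summed counts, and it was not read as a difference.

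**Figure D2:**
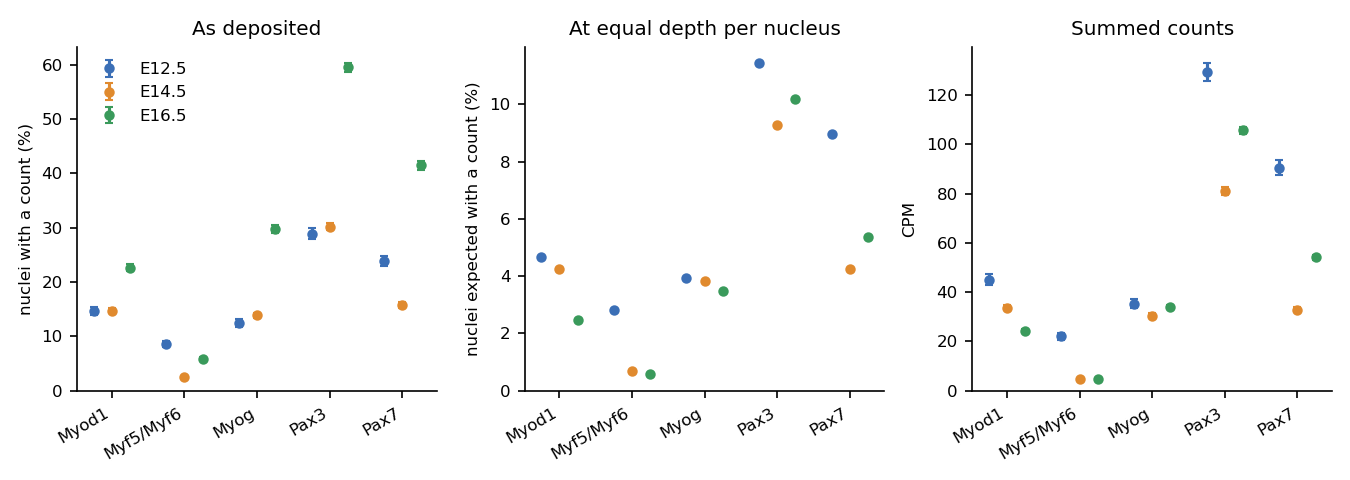
Level of the 5 loci in the 3 libraries (colours): share of nuclei with a count as deposited (%), share expected with each nucleus thinned to 1309 fragments (%), and summed counts (CPM). Each level used the library's own peaks. Bars are 95% counting intervals, and the thinned shares carry none. E16.5 is highest at 4 of 5 loci as deposited and at none once thinned.

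The summed counts of each locus gave the same order of stages as the thinned shares at Pax3, Pax7 and Myod1. Both measures took the peaks called in each library, which differed in number and width, so they were not independent. Over regions called in all 3 libraries Pax7 took 43.7, 32.0 and 40.6 CPM, so the size of its differences depended on which peaks were called. Pax3 took 129 CPM (126 to 133), 80.9 (79.2 to 82.7) and 106 (104 to 107), and Pax7 took 90.4 (87.4 to 93.4), 32.9 (31.8 to 34.0) and 54.1 (53.0 to 55.2). Myod1 took 45.0 (42.9 to 47.2), 33.7 (32.6 to 34.8) and 24.3 (23.6 to 25.1). Myog took 35.3 (33.5 to 37.2), 30.3 (29.3 to 31.4) and 34.1 (33.2 to 34.9), so its E12.5 and E16.5 intervals overlapped. Myf5/Myf6 took 22.0 (20.5 to 23.5), 4.53 (4.15 to 4.94) and 4.66 (4.36 to 4.97), and the intervals of the later stages overlapped. In a summed level, fewer open nuclei and less accessibility per nucleus cannot be told apart.

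Levels of different genes were set side by side only per kb of called peak. The Myod1 window held 7.53 and 14.6 CPM per kb at E12.5 and E14.5, including the promoter of Kcnc1, which took 25.02 CPM at E14.5 where the Myod1 gene-body region took 5.12. Myog stood at 5.29 CPM per kb at E16.5, Pax7 at 3.74 at E12.5, and Myf5/Myf6 at 6.27 and 2.85 at the later stages. Pax3 stood at 4.96, 9.95 and 4.38 CPM per kb, with the promoter of Gm2102 in its window. No order of the loci was read from these levels, since they include promoters of other genes. The per-kb level was highest at E14.5 for all 5 loci, the library with the narrowest peaks, where peaks in shared regions had median widths of 964, 628 and 1144 bp in the 3 libraries.

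Ratios between stages were taken over the regions called in all libraries, 9 at Pax3, 7 at Pax7, 5 at Myog, 3 at Myod1 and 2 at Myf5/Myf6. From E12.5 to E16.5 the Myf5/Myf6 locus stood 4.88-fold lower, from 13.5 to 2.77 CPM, a log2 ratio of −2.29 (−2.46 to −2.11). Of 17521 autosomal genes with the same window, 0.348% had a lower one. Myod1 stood 1.88-fold lower, from 45.0 to 24.0 CPM, a log2 ratio of −0.91 (−0.99 to −0.82), with 3.16% of genes lower. For Pax3 the log2 ratio was −0.18 (−0.23 to −0.12), for Pax7 −0.11 (−0.18 to −0.03) and for Myog −0.00 (−0.10 to 0.09). Thus 1 of 5 loci was past 2-fold, where 4.43% of all genes were, and the median over loci was −0.18, beside −0.00 for all genes.

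From E12.5 to E14.5 all 5 loci had a negative log2 ratio. It was −1.58 (−1.76 to −1.40) at Myf5/Myf6, −0.45 at Pax7, −0.42 at Myod1, −0.28 at Pax3 and −0.13 at Myog. The median was −0.42, against 0.11 for all genes, and 1 of 5 loci was past 2-fold, beside 3.07% of genes. From E14.5 to E16.5 the loci split: Myf5/Myf6 and Myod1 stood lower, with −0.71 and −0.49, and Pax7, Myog and Pax3 higher, at 0.34, 0.13 and 0.11. The Myod1 value in that step rested on the region over the promoter of Kcnc1, a neighbouring gene, whose log2 ratio was −0.79, while the Myod1 gene-body region had 0.28 (0.13 to 0.43). Without peaks at promoters of other genes Myod1 stood at −1.30 from E12.5 to E14.5, 0.14 from E14.5 to E16.5 and −1.16 from E12.5 to E16.5, so that its direction in the later step reversed, and Pax3 at −0.73, 0.32 and −0.41. None of the 5 was past 2-fold in that step, beside 2.90% of genes, and the median was 0.11 against −0.13.

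The called width changed what those steps showed. Per kb of called peak the median over loci became 0.61 from E12.5 to E14.5, with 4 of 5 loci above 0, and −0.94 from E14.5 to E16.5, with all 5 below 0. The medians of all genes moved the same way, to 0.50 and −0.69. From E12.5 to E16.5 the per-kb ratios stayed negative at all 5 loci, at −1.05 for Myf5/Myf6, −0.56 for Myod1, −0.28 for Pax7, −0.26 for Pax3 and −0.01 for Myog, beside −0.20 for all genes. The direction of either step through E14.5 was therefore not read as a change at these genes.

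**Figure D3:**
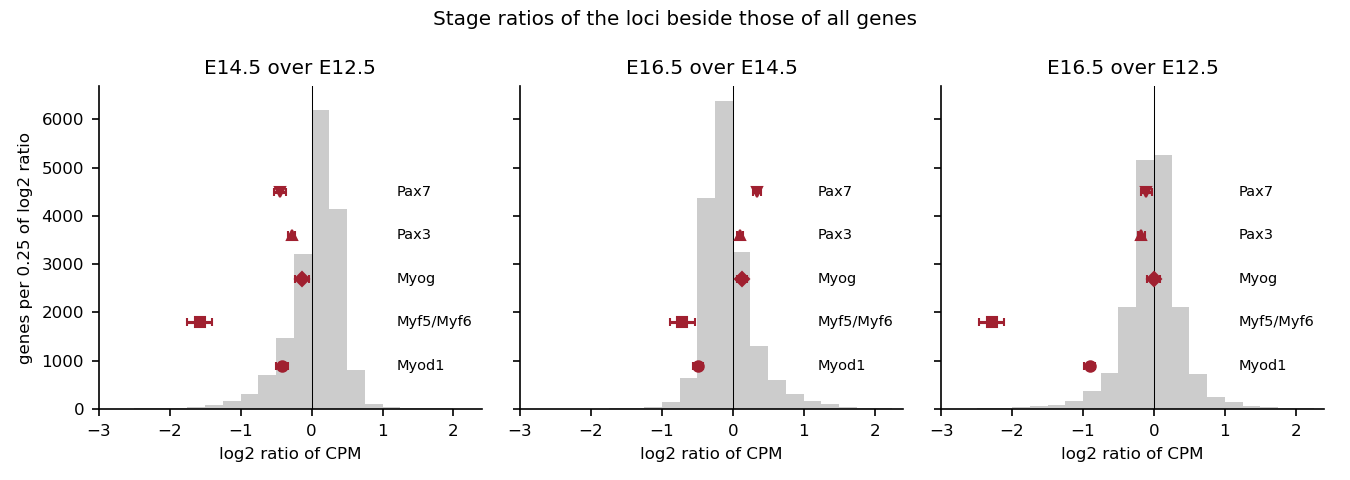
Log2 ratio of CPM between stages over regions called in all libraries (x axis) for the 5 loci (points, with 95% counting intervals) over the histogram of 17521 autosomal genes (grey, y axis in genes per 0.25 of log2 ratio). The vertical position of the points has no meaning, and genes beyond the axis are not drawn. Myf5/Myf6 lies left of the bulk in all 3 comparisons, while Pax3, Pax7 and Myog lie within it from E12.5 to E16.5.

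Single regions within a locus differed more than the loci did. Of the 26 member regions, 8 were past 2-fold from E12.5 to E14.5, all of them lower, where 31.2% of all regions were past 2-fold. From E14.5 to E16.5, 3 were past 2-fold, all higher, beside 26.8%. From E12.5 to E16.5, 6 were, all lower, beside 34.9%. The first of these shares, 30.8%, was close to its background, and those of the other comparisons were 11.5% and 23.1%.

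At Pax3 the promoter region took 10.9, 11.6 and 14.5 CPM, with a log2 ratio from the first to the last stage of 0.40 (0.25 to 0.56). An intronic region 39.4 kb downstream of the start, the one whose letters are shown with 4 E-boxes, took 23.1, 9.16 and 5.06 CPM, a log2 ratio of −2.19 (−2.33 to −2.06). A farther intronic region at 83.8 kb took 7.17, 0.423 and 0.758 CPM. A nearer intronic region at 7.52 kb took 5.97, 6.75 and 7.61 CPM. Per kb of called peak the promoter took 5.32, 9.56 and 5.13 CPM, so the higher promoter value at E16.5 depended on the called width. The steps to E14.5 at both far introns depended on it too. The region at 83.8 kb was called over 1402, 75 and 335 bp and held 5.12, 5.64 and 2.26 CPM per kb, higher at E14.5 than at E12.5. The one at 39.4 kb held 10.1 and 9.62 CPM per kb at the first and second stages, and its 2 peaks of the last stage held 2.84 and 4.35. The most counted region of the window, 28.4, 38.7 and 34.2 CPM, lay 20.1 kb upstream on the promoter of Gm2102, so that part of the Pax3 level came from another gene's start.

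At Pax7 the promoter region took 13.4, 10.4 and 14.1 CPM, with a log2 ratio from E12.5 to E16.5 of 0.07 (−0.07 to 0.22). Its peak widened from 2870 bp at the first stage to 4362 bp at the last, and per kb of called peak the level was 4.67 and then 3.23 CPM, so the near-equal values depended on the called width. An intronic region 11.95 kb in took 6.73, 10.0 and 8.79 CPM, and one 10.4 kb upstream took 7.08, 2.48 and 3.995 CPM. The former stood higher and the latter lower at both later stages than at E12.5.

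At Myod1 the gene-body region took 15.6, 5.12 and 6.21 CPM, a log2 ratio from E12.5 to E16.5 of −1.33 (−1.48 to −1.18). Its peak was 3261, 613 and 2641 bp wide in the same order, and per kb of called peak it held 4.79, 8.36 and 2.35 CPM, so that the step to E14.5 reversed. An intergenic region 16.9 kb downstream took 5.63, 3.52 and 3.32 CPM. Over the promoter of Kcnc1, a potassium channel gene 20.6 kb downstream, the window took 23.7, 25.02 and 14.4 CPM, more than the rest of the Myod1 locus together in each library.

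The region over Myf6 took 8.63, 4.36 and 2.19 CPM, a log2 ratio from E12.5 to E16.5 of −1.98 (−2.19 to −1.77). Its peak was 1122, 642 and 638 bp wide, and per kb of called peak it held 7.69, 6.79 and 3.43 CPM, a smaller difference in the same direction. The region between Myf5 and Myf6 took 4.90, 0.173 and 0.587 CPM, and at E14.5 it was a peak of 81 bp with 34 counts. Per kb it held 4.78, 2.14 and 2.16 CPM. Both shared regions of this locus were therefore lower at E16.5 than at E12.5. A peak within Myf5 itself was called only at E12.5, where it was open in 1.27% of nuclei.

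At Myog the region over the gene's 3′ end took 4.39, 4.51 and 4.30 CPM, and its log2 ratio from E12.5 to E16.5 was −0.03 (−0.27 to 0.22). Downstream, within the neighbouring gene Ppfia4, an exonic region at 9.16 kb took 10.9, 9.17 and 7.64 CPM and an intronic one at 12.9 kb took 8.08, 7.44 and 11.6 CPM. The latter was the region of the locus open in most nuclei at E16.5, 11.5% of them.

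With windows cut to the gene body and the 2 kb upstream, Myf5 had no shared region and 5 members were measured. The median log2 ratio over them was −0.84 from E12.5 to E14.5, 0.15 from E14.5 to E16.5 and −0.69 from E12.5 to E16.5, beside 0.15, −0.17 and 0.01 for 15852 genes. From E12.5 to E16.5, 2 of the 5 members were past 2-fold, Myod1 and Myf6, both lower, where 5.94% of genes were past 2-fold in either direction. In the step to E14.5, 1 of 5 was, beside 3.97% of genes, and in the step from there 0 of 5, beside 4.17%.

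The other genes of the muscle programme were read in the same windows, from lists named for limb muscle precursors (14 genes) and for differentiation and contraction (25 genes). All 14 precursor genes had a shared region, and their median log2 ratio from E12.5 to E16.5 was −0.15, with 10 lower, 4 higher and 1 past 2-fold. Of the differentiation genes 19 were measured, with a median of −0.26, 13 lower, 6 higher, 2 past 2-fold downward and 1 upward. The all-gene median was 0.01, and 5.94% of genes were past 2-fold in either direction. Lists named for other cell types also stood below that median, at −0.38 for epithelial, −0.27 for chondrogenic and −0.26 for mesenchymal progenitor genes. The pericyte, Schwann and neural, and endothelial lists stood above it. A median below that of all genes was thus not particular to the muscle lists. The lowest ratios were those of Myl1, a myosin light chain (−1.59), Eya1, a cofactor of sine oculis homeobox proteins (−1.14), and Mymk, a fusion protein (−1.04). The highest were those of Myom2 (4.11) and Neb (0.77), sarcomere genes, and of Des, the muscle intermediate filament (0.39). Myom2 rested on 0.635 CPM at E12.5.

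The question of muscle nuclei was then put to single nuclei. If a group of nuclei had the muscle programme, loci of these genes would be open together in them more often than their separate shares predict. The number expected was computed within 20 strata of depth, because nuclei with more fragments had more loci open: at E12.5 the median was 1553 fragments in nuclei with 0 loci open and 31399 in those with all 5, and at E16.5 it was 4920 and 32584.

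Nuclei with 2 or more of the 5 loci open numbered close to the expectation in each library. At E12.5 there were 1944 against 1964 expected, a ratio of 0.990 (0.946 to 1.03). At E14.5 there were 3707 against 3740, a ratio of 0.991 (0.959 to 1.02), and at E16.5 7135 against 7103, a ratio of 1.005 (0.981 to 1.03). For 3 or more loci the ratios were 0.994, 1.01 and 1.005, and each interval held 1. The Myod1 and Pax3 windows include the promoters of Kcnc1 and Gm2102, so a locus counted as open may be open only there. Without peaks at promoters of other genes the ratios for 2 or more loci were 0.985, 0.989 and 1.007. A nucleus open at a locus also counts in the share from which the expected number is built, so the ratio for 2 or more is a weak check for a small group of nuclei. For the same reason the intervals were wider than the spread of the ratio with those shares fixed. At 0 or more loci, where the ratio is 1 by construction, the E16.5 interval was still 0.984 to 1.02. An interval that held 1 therefore did not show that the loci opened independently. The count of 4 or more loci was added after the values had been seen.

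Nuclei with 4 or more loci open numbered 261 against 231 expected at E12.5, a ratio of 1.13 (0.996 to 1.27). They numbered 105 against 100 at E14.5, a ratio of 1.05 (0.858 to 1.27), and 854 against 835 at E16.5, a ratio of 1.02 (0.955 to 1.09). All ratios were above 1 and all intervals held 1. The difference was 29.8 nuclei at E12.5, which counting error places between −0.0105% and 0.766% of that library. It was 4.92 nuclei at E14.5 (−0.0709% to 0.135%). For E16.5 it was 19.1 nuclei (−0.265% to 0.558%). With 10 strata of depth in place of 20 the E12.5 ratio was 1.23 (1.08 to 1.39), and with 50 it was 1.11 (0.977 to 1.25), so at E12.5 the side of 1 on which the interval lay depended on how finely depth was matched. All 5 loci were open in 44, 4 and 71 nuclei, against 33.9, 3.29 and 68.5 expected.

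**Figure D4:**
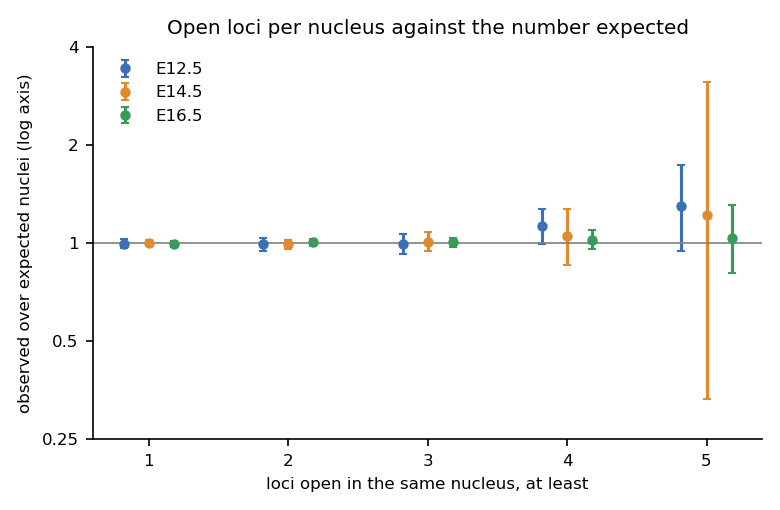
Nuclei with at least the given number of the 5 loci open (x axis), as the observed over the expected number within 20 strata of depth (y axis, log scale), in each library (colours). Bars are 95% counting intervals of the observed number, and every interval holds 1. They are wider than the spread of the ratio with each locus's share fixed.

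The 10 pairs of loci gave the same picture. Over the 3 libraries the 30 pair ratios ran from 0.940 (Myog and Pax7 at E14.5) to 1.147 (Myf5/Myf6 and Myog at E14.5), and 0 of 30 intervals lay off 1. These intervals too were wider than the spread with the shares fixed, so that count did not show that the loci opened independently. Pooled over pairs the ratio was 1.02, 1.0005 and 1.01. Pax3 and Pax7, the factors shared by muscle precursors, were open together in 950, 1289 and 4235 nuclei, against 968, 1272 and 4212 expected. Myod1 and Myog were open together in 302, 529 and 1221, against 285, 536 and 1235. In the gene-body windows 1 of 30 intervals lay above 1, that of Myf5/Myf6 and Pax3 at E14.5, with 112 nuclei against 89.6 (1.25, 1.03 to 1.503). The same pair had 1.05 (0.900 to 1.21) at E12.5 and 1.04 (0.924 to 1.17) at E16.5.

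The nuclei with 2 or more loci open were then read at genes that had not chosen them. A ratio of 1.5 or more over the expected number was reached by 0% of 16424 genes at E12.5, 0.00634% of 15776 (1 gene) at E14.5 and, at E16.5, 0% of 16919. No gene of either muscle list reached it. These nuclei were 23.4%, 18.5% and 50.8% of the libraries, and more of the deep nuclei than of the shallow ones. A ratio cannot pass the inverse of that share, so 1.5 was hard to reach, above all at E16.5. The highest of any gene was 1.32, 1.56 and 1.19. A muscle list without a gene at 1.5 therefore does not show that muscle nuclei were absent. The median ratio of the precursor list was 1.02, 1.02 and 1.01 and that of the differentiation list was 1.01, 1.02 and 1.002, beside 1.01, 1.01 and 1.001 for all genes. The highest of these genes by their lowest value over the libraries were Mymk (1.02), Vgll2, a cofactor of muscle gene expression (1.01), and Myl1 (1.01). At E16.5 the precursor median, 1.008 with 10 of 14 genes above 1, lay above the upper quartile of all genes, 1.007, and the other medians of both lists lay within the quartiles. A list median varies less than single genes do, so its place among their quartiles does not show a list to be ordinary or unusual.

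The same measure was set beside the lists named for other cell types. Over all pairs of genes more than 1 Mb apart, the muscle differentiation list had a ratio of 1.013, 0.9998 and 1.001, the precursor list 1.013, 1.005 and 1.003 and the 6 regulators 1.01, 1.03 and 1.02. In contrast, at E16.5 the epithelial list had 1.26 and the chondrogenic list 1.16, with the intervals of 15 of 15 and 21 of 21 pairs above 1. In the earlier libraries these lists were near 1 as well. The epithelial list had 1.04 and 1.01, with 0 of 13 and 1 of 10 intervals above 1, and the chondrogenic list 1.02 and 1.04, with 0 of 21 and 4 of 21. At E12.5 and E14.5 the measure therefore set these lists little apart from the muscle lists. The highest pair of the epithelial list was Krt5 and Krt14, keratins of basal epidermis, with 301 nuclei against 68.5 expected (4.39, 3.91 to 4.92), and that of the chondrogenic list was Matn1 and Snorc, cartilage matrix genes (1.80, 1.65 to 1.97). Of the differentiation pairs with 20 or more nuclei expected, 10 of 244 lay above 1 and 3 below at E16.5, 1 and 2 of 181 at E14.5 and 7 and 1 of 199 at E12.5, where Des and Myl1 were highest (1.498, 1.14 to 1.94). Of such regulator pairs, 0 of 11, 1 of 8 and 0 of 12 lay above 1. The share of pairs off 1 was not taken over all genes, so these counts have no background and are a description.

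**Figure D5:**
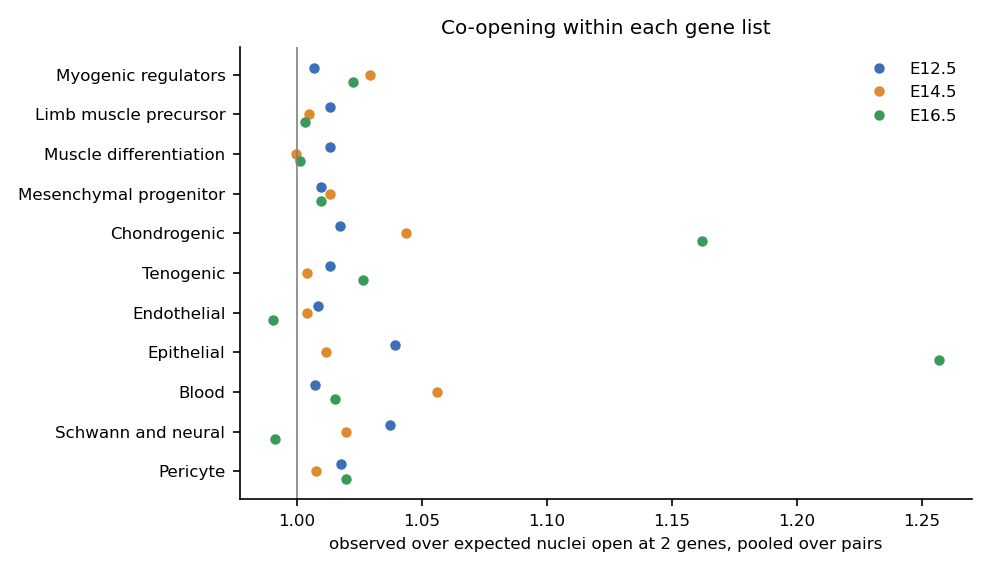
Observed over expected number of nuclei open at 2 genes of a list, pooled over its pairs (x axis), for 11 lists (rows) in the 3 libraries (colours). The myogenic regulators and both muscle lists lie between 0.9998 and 1.03, while the epithelial list lies at 1.26 and the chondrogenic list at 1.16 at E16.5, and both between 1.01 and 1.04 in the earlier libraries. The tenogenic list lies at 1.03 and the pericyte list at 1.02 at E16.5.

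The values that follow, on the Myod1 gene-body peak at E16.5, were chosen for display after they had been seen. Of 16596 genes, 112 (0.675%) were open at 1.5 or more times the expected rate in the 934 nuclei open at this peak. The same count was 12 genes at E12.5 and 13 at E14.5, from 490 and 514 nuclei. Those 934 nuclei had 120 open at Krt5 against 70.1 expected (1.71, 1.42 to 2.05) and 141 at Krt14 against 82.7 (1.71, 1.44 to 2.01). Epcam, an epithelial adhesion gene, had 240 against 170 (1.41, 1.24 to 1.60). The highest ratios were those of Skint8 (2.48), BC117090 (2.45) and Abhd12b (2.34), and Epgn, a growth factor of the EGF family, had 2.31.

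Summed over lists, those nuclei had the epithelial genes open at 1.21 times the expected rate and the muscle differentiation genes at 0.999 times. At E12.5 the epithelial value for this peak was 0.979, with Krt5 at 0.589 (0.216 to 1.28). At E14.5 the epithelial value was 1.08, with 376 open genes summed over those nuclei against 347 expected, Krt14 at 1.17 (0.657 to 1.94) and Trp63 at 1.148 (0.933 to 1.40). Within the E16.5 Myod1 window the peak 16.9 kb downstream had 1.16 for the epithelial list and the Kcnc1 promoter had 1.02. The excess at epithelial genes at E16.5 was thus measured at the Myod1 body and, less, at its downstream peak.

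Read from the other side, 301 nuclei (2.14%) of the E16.5 library were open at both Krt5 and Krt14. Of these, 67 were open at the Myod1 gene-body peak, against 27.1 expected at their depth, a ratio of 2.48 (1.92 to 3.15). That is 22.3% of them (17.7% to 27.4%), against 6.31% of the remaining nuclei, and their median was 19301 fragments against 13622. Over the whole 20 kb window the Myod1 locus was open in 135 of them against 89.7 expected, a ratio of 1.51 (1.26 to 1.78). On that same measure the other loci had 0.802 (0.648 to 0.981) for Myog, 0.862 (0.744 to 0.993) for Pax3, 0.997 (0.849 to 1.16) for Pax7 and 0.719 (0.419 to 1.151) for Myf5/Myf6. Leaving these nuclei out kept the ratio for 2 or more loci at 1.004 (0.981 to 1.03). At E12.5 only 6 nuclei were open at both keratins, too few to compare. How far the 301 nuclei account for the Myod1 signal at E16.5 was not tested. Krt5 and Krt14 had already been seen to open with the Myod1 gene-body peak, so the ratio of 2.48 reads the same overlap again. It was not taken over all genes in these nuclei and has no background.

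For each locus the 3 genes most often open in the same nuclei, ranked by the lowest ratio over the 3 libraries, were named whatever their function. For Myod1 they were Serpinb8 (1.18), Cyp4x1 (1.18) and Gm39653 (1.17), and for Myog Slc51a (1.17), Tmprss11a (1.14) and Tcf23 (1.13). For Pax3 they were Rpl39l (1.07), Gfral (1.04) and Cryab (1.04), and for Pax7 Apoa5 (1.1), Clec12b (1.09) and Cd177 (1.08). Myf5/Myf6 had the highest, with Car3 (1.22), a carbonic anhydrase abundant in skeletal muscle, Isx (1.19) and Oxgr1 (1.19). Car3 was open with Myf5/Myf6 in 133, 59 and 158 nuclei against 109, 42.3 and 124 expected, and its interval lay above 1 in each library. It was chosen as the highest of 14873 genes ranked for that locus, so these values are a description.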

How the data were processed

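The deposited values were counts, whole numbers of cut sites in each peak of each nucleus, made by the authors with Cell Ranger ATAC on mm10 and not normalised, with peaks called in each library alone. Per the labels the version was 1.1.0, while the file headers name 1.0.1 (E12.5, E14.5) and 1.2.0 (E16.5), and the lists carry no scores. All deposited nuclei were used and no doublet caller was run. Levels were summed counts per 1000000 cut sites in autosomal regions called in all 3 libraries (overlap of 1 bp). Intervals were exact Poisson, on cut sites divided by 2 and rounded up, or exact (Clopper-Pearson) binomial, at 95%. The expected number of nuclei with several open loci came from each locus's share within 20 strata of depth (Poisson-binomial), with no resampling. Pairs of genes within a list were more than 1 Mb apart. A minimum of 20 expected nuclei applied to the counted intervals of list pairs, the highest pairs and the gene ratios behind list medians and all-gene shares. It did not apply to pooled ratios, pairs of loci or the listed genes read at the Myod1 peak. Thinning used the 25th percentile of fragments at E12.5 and gave expected shares without a random draw. Past 2-fold, or 1.5 times the expected number, counted as called.

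The rule for named genes took all 6 regulators with every region, the 3 highest and 3 lowest muscle genes by the ratio of E16.5 to E12.5, the 3 highest in nuclei with 2 or more open loci and the 3 genes most often open with each locus. For the other lists medians and pooled ratios were planned, and the pairs named there, the values of the Myod1 peak and the nuclei open at Krt5 and Krt14 were chosen after values had been seen. The genes, lists and rules were chosen with earlier results of these data known. Scripts were tested on simulated data. Python 3.11.15, numpy 2.4.6, pandas 2.3.3, scipy 1.17.1 and matplotlib 3.10.9 were used, with the GENCODE basic annotation of GRCm38. Alternatives were the scaling, all own peaks, counts per kb, a minimum of 100 counts, the window, promoters of other genes, the strata and the deepest 5% of nuclei.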

Additional observations from a re-analysis of the deposited data

How the results depend on the processing

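The median log2 ratio over the 5 loci reversed per kb of called peak width in both steps through E14.5, to 0.61 from E12.5 to E14.5 and to −0.94 from E14.5 to E16.5, and was −0.28 from E12.5 to E16.5; all-gene medians shifted likewise. For E14.5 over E12.5 it was −0.53 scaled by the median ratio of all genes, −0.68 with all own peaks of each library, −0.73 without peaks at promoters of other genes and −0.84 in gene-body windows. For E16.5 over E14.5 it was 0.23 with that scaling, 0.17 with own peaks, 0.15 in gene-body windows and 0.014 without regions under 100 counts. For E16.5 over E12.5 it was −0.74 with own peaks, −0.41 without other promoters, −0.69 in gene-body windows and −0.11 without regions under 100 counts. The cause of these shifts was not tested. For nuclei with 2 or more open loci, 20 of 21 settings kept the ratio within its counting interval and all lay between 0.969 and 1.02, the gene-body window at E14.5 giving 1.02. For 4 or more loci, added after the values were seen, the ratio was 1.32 (0.928 to 1.83) at E14.5 without other promoters (36 nuclei). It was 1.27 (0.990 to 1.59) at E16.5 in gene-body windows (72 nuclei). At E12.5 it was 1.16 (0.994 to 1.35) without other promoters and 1.19 (0.978 to 1.44) without the deepest nuclei. The lowest was 0.911 (0.248 to 2.33) at E14.5 in gene-body windows. No paired analysis was possible because each stage had 1 library and no test was run. With 1 library per stage no replicate could be left out, so counting error is a lower limit of the true error. Shallow nuclei limit what a missing count shows, and a nucleus without a count was not shown to be closed.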
